A study of Mus musculus with 2 samples.

Results

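The subject is the set of DNase I footprints that lie outside every called peak of their own library. A footprint was counted as outside when it shared no base with any peak of the longer of the authors' 2 peak lists for that replicate, on chromosomes 1 to 19. Replicate 1 had 44073 such footprints of 270167 (16.3%, Wilson 95% interval 16.2 to 16.5%), and replicate 2 had 48638 of 310738 (15.7%, interval 15.5 to 15.8%). The mean share was 16.0% ± 0.467 (SD, n = 2). The members were chosen by the deposited peaks and footprints themselves, so that they miss the peaks is no finding, and no test was made on it. The intervals cover counting error only.

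The libraries came from the thymus of 2 female B6CASTF1/J mice, F1 hybrids between the strains C57BL/6J and CAST/EiJ, both aged 14 days, with no treatment and no control group. Their labels name biological replicates 1 and 2, carry different animal numbers and share a donor identifier, and they were taken as separate animals. The read depth of both libraries is unknown from the deposited tables. Whole thymus holds thymocytes together with stromal and other blood cells, and a site open in few cells cannot be told apart from a site weakly open in many.

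DNase I cuts DNA that is not wrapped in nucleosomes, so open regulatory DNA yields clusters of cuts, which are called as peaks. A bound protein shields its own bases within such open DNA, and the short gap in cutting that it leaves is called a footprint. Promoters of widely used genes are commonly rich in CpG and bound by general factors, whereas CTCF, an insulator protein with a long recognition sequence, binds mostly away from them.

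A footprint seen outside the peaks of both libraries is the clearest case of the class, and 6830 pairs overlapped reciprocally by at least 50% of their bases while lying outside both replicates' peaks. Sets of them are shown with their sequence, read 5′ to 3′ on the plus strand of mm10 (the C57BL/6J reference; which allele was cut in the cross is not known here). Capitals mark the bases that the footprints of both replicates share. The widest are shown because a wide gap in cutting leaves most bases to read; for Cdkn2d, a cyclin-dependent kinase inhibitor gene, and Hlcs, the gene of the ligase that attaches biotin to carboxylases, the central 30 bases are given, all within the shared footprint, since the flanks touch annotated UTRs. Ppm1b encodes a protein phosphatase and Utp6 a factor of ribosomal RNA processing.
Cdkn2d, chr9:21291407-21291436: GCCTGCTGGGAATAACAGCCAATCAGCACG
Hlcs, chr16:94313576-94313605: CGCCCCCTGGCGGCCGCGGCGAGCAGCGCG
Ppm1b, chr17:84957523-84957596: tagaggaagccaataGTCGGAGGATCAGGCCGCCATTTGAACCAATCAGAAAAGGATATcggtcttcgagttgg
Utp6, chr11:79962512-79962584: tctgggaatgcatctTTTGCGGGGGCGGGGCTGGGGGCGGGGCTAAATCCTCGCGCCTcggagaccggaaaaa
The Cdkn2d and Ppm1b windows hold the pattern CCAATCAG of the CCAAT-binding factor NFY, and the Utp6 window holds GGGCGGGG, the GC box bound by SP and KLF proteins. These footprints shared 48, 44, 44 and 43 bp between replicates and lay 16, 149, 39 and 7 bp from the nearest peak of either replicate, in the order listed. Each was within 500 bp upstream of the transcription start site (TSS) of the named gene, at 113, 28, 439 and 158 bp.

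Of the 6830 pairs, 39 (0.571%) had the CTCF pattern in the window around them. The share of all outside windows with it was near this, 0.576% in replicate 1 and 0.512% in replicate 2. Inside footprints at promoters had it in 0.685% and 0.681%. Of the 39 pairs, the 4 with the lowest false discovery rate (FDR) in their weaker replicate are shown. CTCF was chosen because, over all footprints, it had the lowest ratio of outside to inside share of the 14 patterns searched. At promoters, where all 4 lie, the CTCF ratio was 0.599 in replicate 1 and 0.579 in replicate 2. The patterns of NFY (0.239 and 0.292), ETS, NRF1 and the cAMP response element had lower ratios there. The 4 pairs lie at promoters of Psmc4, a proteasome subunit gene, Asnsd1, an asparagine synthetase-like gene, C1galt1, a glycosyltransferase gene, and Carm1, an arginine methyltransferase gene, all upstream of the TSS.
Psmc4, chr7:28050302-28050358: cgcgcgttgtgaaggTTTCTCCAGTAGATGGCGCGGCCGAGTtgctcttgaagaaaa
Asnsd1, chr1:53352866-53352910: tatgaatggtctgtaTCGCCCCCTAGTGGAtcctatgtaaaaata
C1galt1, chr6:7844483-7844533: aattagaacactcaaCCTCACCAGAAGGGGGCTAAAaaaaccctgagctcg
Carm1, chr9:21546775-21546819: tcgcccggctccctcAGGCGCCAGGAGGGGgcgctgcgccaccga
Of these, the C1galt1 footprint had the same start and end in both replicates, with a lowest FDR of 1.08e-164 in replicate 1 and 4.04e-90 in replicate 2. It lay 103 bp from the nearest replicate 1 peak and 3 bp from the nearest replicate 2 peak.

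The pairs farthest from any peak are shown to give the far end of the class. They were nearest to Morc3, a chromatin ATPase gene (550 bp from any peak, in an exon), Ube2g1, a ubiquitin-conjugating enzyme gene (493 bp, in an intron), Ing2, a gene of a histone deacetylase complex subunit (435 bp, in an exon), and the predicted gene Gm21992 (428 bp, 400 bp from its TSS).
Morc3, chr16:93832855-93832891: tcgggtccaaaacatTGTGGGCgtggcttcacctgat
Ube2g1, chr11:72607840-72607876: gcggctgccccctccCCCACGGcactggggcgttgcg
Ing2, chr8:47674622-47674658: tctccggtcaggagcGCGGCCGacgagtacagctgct
Gm21992, chr19:4811088-4811126: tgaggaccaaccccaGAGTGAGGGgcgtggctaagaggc
The shared parts were 7 to 9 bp wide, short beside those of the widest set. Their lowest FDR ran between 2.35e-07 and 1.71e-44 in replicate 1.

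The pairs with the strongest track support near a TSS belonged to Stt3b, a catalytic subunit gene of the oligosaccharyltransferase, Fgd6, Zcchc17 and Myo10, an unconventional myosin gene. Stt3b and Myo10 are shown, since their flanks touch no UTR.
Stt3b, chr9:115310612-115310660: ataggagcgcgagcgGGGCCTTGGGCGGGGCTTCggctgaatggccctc
Myo10, chr15:25622192-25622249: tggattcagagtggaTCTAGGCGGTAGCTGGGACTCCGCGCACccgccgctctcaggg
The Stt3b footprint holds the GC box pattern, had an FDR under 1e-300 in replicate 1 and 8.83e-290 in replicate 2, and lay 45 and 47 bp from the nearest peaks of replicates 1 and 2. The Myo10 footprint lay 27 and 26 bp from them.

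Outside footprints lay close to peaks. The median distance to the nearest peak was 36 bp in replicate 1 and 53 bp in replicate 2, with 95th percentiles of 203 and 237 bp and maxima of 766 and 918 bp. Within 150 bp of a peak lay 89.8% of outside footprints in replicate 1 and 84.3% in replicate 2 (mean 87.0% ± 3.88, SD, n = 2). Footprints over 150 and up to 500 bp away made up 10.2% and 15.5%, and 23 and 87 footprints lay farther still. None of the 44073 and 48638 was over 2000 bp from a peak. Most had a peak near on 1 side: 8.58% in replicate 1 and 6.70% in replicate 2 had peaks within 150 bp on both sides. The distances are from the last base of the footprint to the first base of the peak, and replicate 2 had the longer ones in each of these summaries. Peaks and footprints came from the same alignments, so the calling bears on these distances, and they are given as a description only.

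The neighbouring peaks were strong ones. Peaks that overlap or touch were joined into 93023 blocks in replicate 1 and 101082 in replicate 2, of which 21.5% and 21.7% were the nearest to at least 1 outside footprint. Strength, the authors' deposited signal of a peak, had a median of 4.08 in blocks with an outside footprint and 0.665 in blocks with none in replicate 1, and 2.04 and 0.547 in replicate 2. Blocks with outside footprints were little wider, with medians of 200 bp against 180 bp in replicate 1 and 220 bp against 200 bp in replicate 2. In the strongest 10% of blocks, 89.2% in replicate 1 and 76.5% in replicate 2 had an outside footprint, with means of 2.83 and 2.51 per block. In the weakest 10%, 5.38% and 4.39% had one, with means of 0.0657 and 0.0502. The nearest peak was among the strongest 10% for 59.7% of outside footprints in replicate 1 and 52.1% in replicate 2, whereas 19.7% and 21.4% of inside footprints lay in such a peak. Among the strongest blocks, 92.2% of those at a TSS and 82.4% of those elsewhere had an outside footprint in replicate 1, against 89.5% and 51.4% in replicate 2, so the replicates differed mainly in strong blocks away from TSSs. The most outside footprints nearest to a single block were 21 in replicate 1 and 20 in replicate 2.

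**Figure D1:**
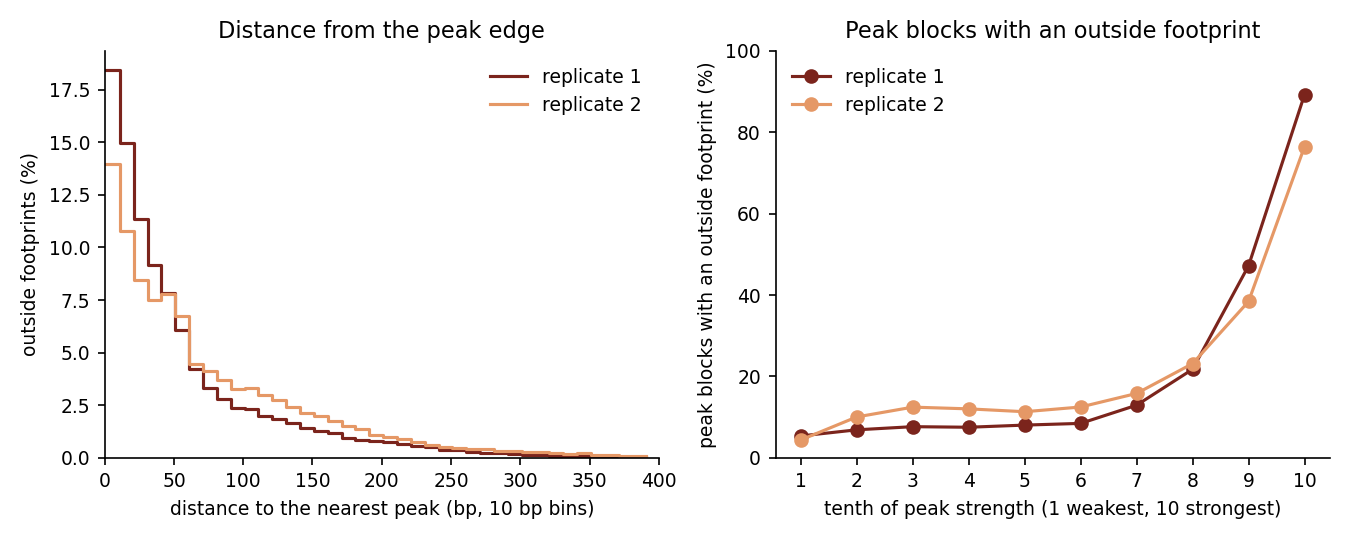
Left, the share of outside footprints (%) in each 10 bp bin of distance to the nearest peak, for replicate 1 and replicate 2; bins beyond 400 bp are not drawn. Right, the share of peak blocks (%) that are nearest to at least 1 outside footprint, by 10 equal classes of peak strength within each replicate. The left curves fall with distance, with medians of 36 and 53 bp, and the right curves reach 89.2% and 76.5% in the strongest class.

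Outside footprints were concentrated at promoters. A midpoint within 500 bp of the TSS of a protein-coding gene was found for 59.2% of outside footprints and 28.5% of inside footprints in replicate 1, and for 55.3% of outside and 27.5% of inside footprints in replicate 2. The difference, 29.2 percentage points ± 2.06 (SD, n = 2), was far larger than the spread between replicates. Introns away from TSSs held 19.8% of outside and 37.5% of inside footprints in replicate 1, and 22.5% of outside and 38.2% of inside footprints in replicate 2. Intergenic DNA held 15.7% and 16.99% of outside footprints, against 26.9% and 27.6% of inside footprints. Exons away from TSSs held the smallest share of both sets, at 5.38% and 5.25% of outside and 7.19% and 6.63% of inside footprints. The promoter share was higher in the distance classes farther from the peak: in replicate 1 it was 48.0% at 1 to 20 bp and 73.4% at over 150 and up to 500 bp, and in replicate 2 it was 48.2% and 66.2%. Beyond 500 bp it was lower, 6 of 23 footprints in replicate 1 and 33 of 87 in replicate 2. Within the strongest 10% of peak blocks the gap between the sets was small, with 76.8% of outside and 72.2% of inside footprints at promoters in replicate 1, and 80.5% and 71.1% in replicate 2. The strength of the adjoining peak moved with the promoter share, and its part in the difference was not tested.

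The contrast depended on which peaks counted as inside. Of the inside footprints, 42765 in replicate 1 and 43215 in replicate 2 lay in a peak that only the longer list holds, and these were a distinct group: 8.23% and 6.39% were at promoters, and their median lowest FDR was 0.00855 and 0.00872. Footprints in peaks of the shorter, stricter list had promoter shares of 33.2% and 31.7%, still below those of outside footprints. When the shorter list alone divided the footprints, 32.1% and 29.5% of all footprints were outside, and the promoter share was 34.1% outside and 33.2% inside in replicate 1, and 32.3% outside and 31.7% inside in replicate 2. The mean CpG number per window was then lower outside than inside, and the median FDR higher outside than inside, the opposite of the order under the longer list.

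**Figure D2:**
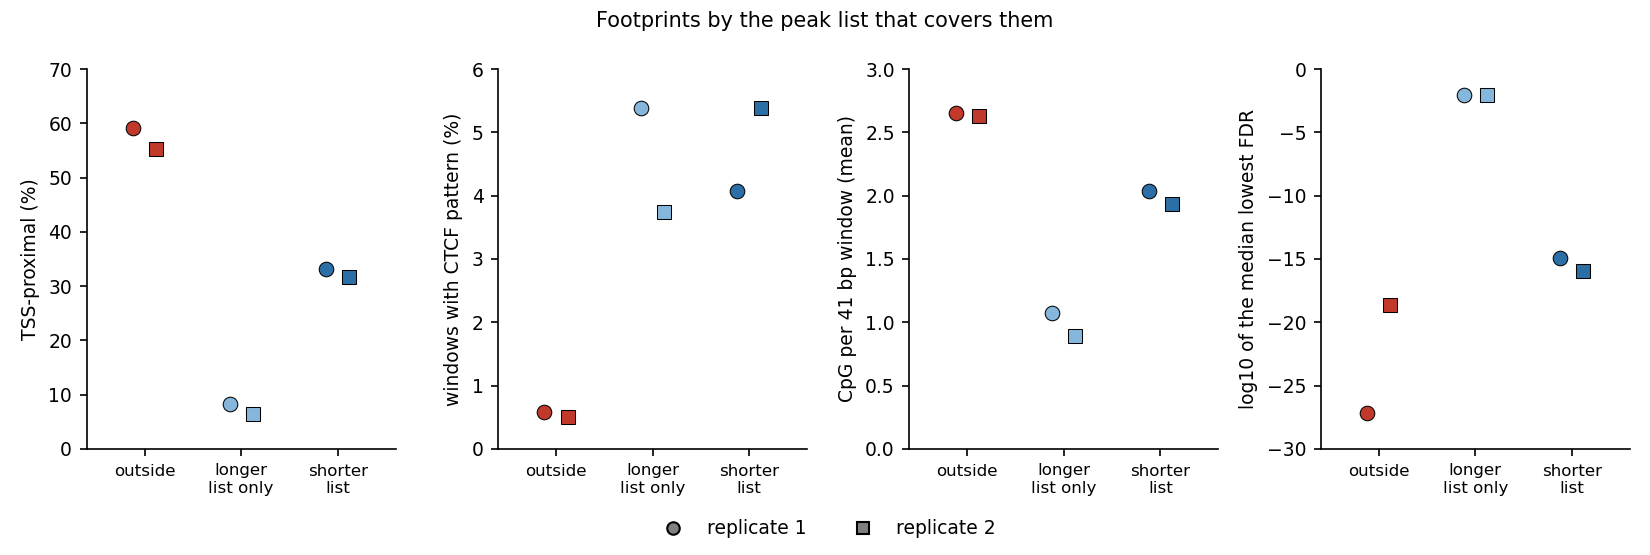
Values for footprints outside the longer peak list (red), in a peak that only the longer list holds (light blue) and in a peak of the shorter list (dark blue): the share within 500 bp of a TSS (%), the share of 41 bp windows with the CTCF pattern (%), the mean number of CpG per window, and log10 of the median lowest FDR. Circles are replicate 1 and squares replicate 2. Outside footprints were highest for the promoter share (59.2% and 55.3%) and lowest for the CTCF pattern (0.576% and 0.512%).

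Outside footprints flanked the zone just upstream of the TSS, where inside footprints were densest. Of the promoter footprints, 11.6% of outside and 33.4% of inside footprints had their midpoint in the 100 bp upstream of the TSS in replicate 1, and 10.0% of outside and 32.1% of inside footprints in replicate 2. Between 100 and 200 bp downstream lay 15.1% and 18.7% of outside footprints, against 6.01% and 7.37% of inside footprints. Between 200 and 300 bp upstream lay 11.5% and 10.8% of outside footprints, against 5.36% and 5.58% of inside footprints. Outside footprints thus had a shoulder on each side. The downstream side held 52.9% and 57.7% of outside promoter footprints and 39.99% and 41.6% of inside ones. The median distance to the TSS was 139 and 166 bp outside and 85 and 87 bp inside. Peaks commonly cover the TSS, so the rule bears on these positions, and they are given as a description only.

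**Figure D3:**
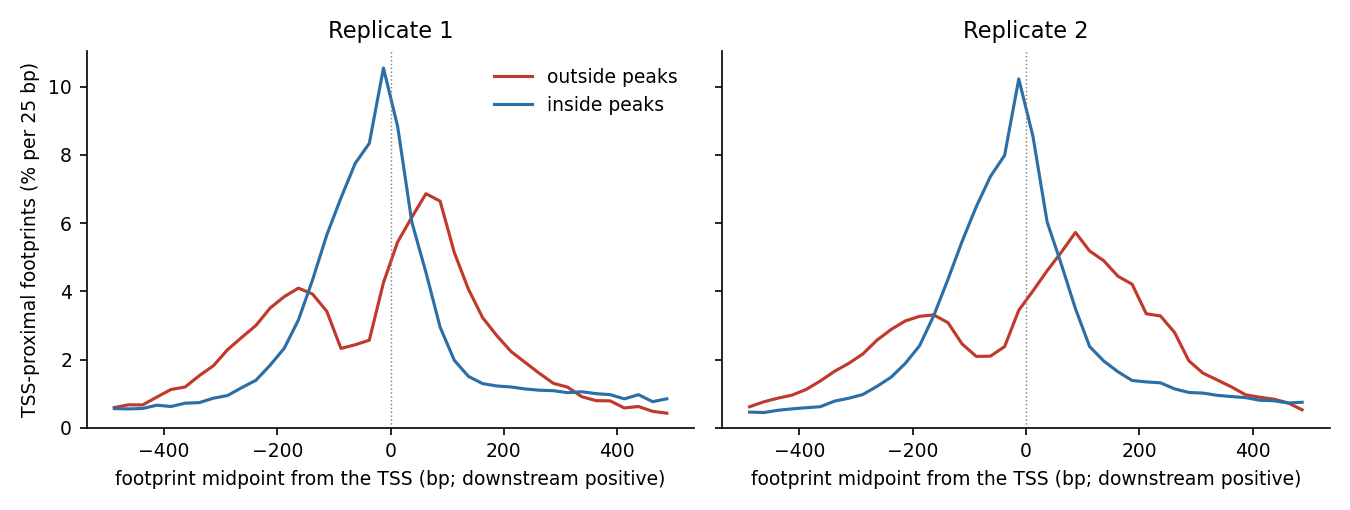
Share of promoter footprints (%) per 25 bp of position from the nearest protein-coding TSS (bp, downstream positive), for footprints outside peaks (red) and inside peaks (blue) in each replicate. The outside curve has a dip in the 100 bp upstream of the TSS, which holds 11.6% and 10.0% of outside footprints, against 33.4% and 32.1% of inside ones.

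Nearly all outside footprints were supported by the deposited track, which lists runs of bases whose cut rate has an FDR under 0.05. The track is no independent measure, because the authors derived the footprints from it and from the same alignments. At least 1 base under 0.05 was found in 99.6% of outside and 99.6% of inside footprints in replicate 1, and in 99.3% of outside and 99.6% of inside footprints in replicate 2. Over all footprints the share was 99.6% in replicate 1 and 99.5% in replicate 2, so the count says nothing about the members. The depth of the support differed between the sets. The median of the lowest FDR was 6.61e-28 outside and 7.64e-11 inside in replicate 1, and 2.22e-19 outside and 1.48e-12 inside in replicate 2. Under 1e-10 lay 77.4% and 66.9% of outside footprints, against 50.3% and 54.6% of inside footprints. Within the strongest 10% of peak blocks the order turned, with medians of 8.99e-48 and 6.44e-36 outside and 2.77e-90 and 5.88e-64 inside. Beside a strong peak, outside footprints therefore had a weaker lowest FDR than the footprints within it. The inside footprints were also wider there, with median widths of 17 and 14 bp against 11 and 9 bp outside. A wider footprint offers more bases for a low value, and peaks are called from the same cuts. The part of width and of the rule in this order was not tested.

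The track also showed how outside footprints related to peaks. The unbroken stretch under FDR 0.05 that held the footprint also held a peak for 98.3% of supported outside footprints in replicate 1 and 96.6% in replicate 2. That stretch had a median width of 1073.5 and 1400 bp for outside footprints, against 394 and 602 bp for inside footprints. Outside footprints share no base with a peak, so a peak could cover only part of a stretch that held both. Such a stretch must also reach past the peak, so the rule bears on these widths, and they are given as a description only. The remaining 729 and 1620 supported footprints stood in a stretch without a peak, with a median lowest FDR of 0.0327 in both replicates. Of these, 96.7% and 96.2% were still within 150 bp of a peak, and 15.4% and 6.79% were at promoters.

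Peaks left a large part of the listed track uncovered. The track outside peaks summed to 13.5 Mb in replicate 1 and 19.2 Mb in replicate 2, and the track inside peaks to 17.8 and 23.1 Mb. Outside peaks the track held 3.24 and 2.50 footprint midpoints per kb, against 12.6 and 11.3 per kb inside peaks. The ratio of outside to inside was low where the support was weak: between FDR 0.05 and 0.001 the densities were 0.859 and 0.905 per kb outside and 7.71 and 5.85 per kb inside. The ratio was nearer to 1 where the support was strong, under 1e-50, with 17.5 and 15.9 per kb outside and 21.6 and 22.7 per kb inside. In replicate 2 the difference in density was nevertheless larger under 1e-50 than between 0.05 and 0.001.

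Outside footprints were slightly narrower. The median width was 9 bp outside and 10 bp inside in replicate 1, and 8 bp outside and 10 bp inside in replicate 2. A width of at least 30 bp was reached by 3.19% and 0.804% of outside footprints and by 7.48% and 5.87% of inside footprints, and the widest outside footprints measured 67 and 56 bp. The shift was present at promoters, where medians were 10 and 9 bp outside and 13 and 11 bp inside. Sharing 1 base with a peak made a footprint inside, which is likelier for a wide one. The rule therefore bears on these widths, and they are given as a description only.

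The bases around outside footprints were richer in CpG, and most of the sequence patterns searched were rarer there. A window of 41 bp centred on the footprint held 2.65 and 2.63 CpG on average outside peaks and 1.85 and 1.76 inside peaks. At promoters the means were 3.58 and 3.75 outside and 3.73 and 3.77 inside, and away from promoters 1.31 and 1.24 outside and 1.11 and 0.999 inside. Within each place the sets lay closer together than over all footprints, and at promoters the outside mean was the lower.

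The 14 letter patterns below were searched on both strands of these windows. A match describes letters and is not a binding site. The CTCF pattern, of 12 positions with 8 fixed letters, was in 0.576% and 0.512% of outside windows and 4.33% and 5.11% of inside windows. Away from promoters it was in 0.817% and 0.657% of outside windows and 5.78% and 6.79% of inside windows, and at promoters in 0.410% and 0.394% outside and 0.685% and 0.681% inside. The share was lower outside peaks both at promoters and away from them. Over all footprint windows the shares were 3.72% and 4.39%.

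Over all footprints, patterns of several lineage and promoter factors were also rarer outside. RUNX at promoters was an exception, with 0.391% and 0.283% outside and 0.368% and 0.333% inside, an order that differed between replicates. TGTGGTT, the pattern of RUNX factors, which are needed for thymocyte development, was in 0.656% and 0.646% of outside windows and 1.66% and 1.26% of inside windows. CNGGAAGT, bound by ETS factors, was in 0.987% and 1.10% of outside windows and 2.01% and 1.68% of inside windows. CAGCTG, an E-box bound by E proteins, was in 2.40% and 2.63% outside and 4.14% and 3.31% inside. GCGCATGCG, bound by NRF1, and TGACGTCA, the cAMP response element, were rare outside, with 0.179% and 0.132% for NRF1 and 0.186% and 0.111% for the response element. Inside, they had 0.315% and 0.289% for NRF1 and 0.352% and 0.281% for the response element. CCAATCAG of NFY had 0.211% and 0.206% outside and 0.490% and 0.385% inside. At promoters NFY had 0.249% and 0.264% outside and 1.04% and 0.905% inside, and NRF1 0.234% and 0.190% outside and 0.828% and 0.813% inside. The response element had 0.196% and 0.134% outside and 0.741% and 0.669% inside there, and ETS 0.970% and 1.001% outside and 2.22% and 1.96% inside.

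Not all patterns were rarer outside. GGGCGGGG, the SP and KLF box, was in 3.96% and 3.43% of outside windows and 3.54% and 3.002% of inside windows. This order turned at promoters, where it was in 5.29% and 5.04% of outside and 8.53% and 7.91% of inside windows. The Ikaros letters TGGGAA had 3.15% and 2.86% outside and 3.18% and 3.33% inside. AAGATGGC of YY1 had 0.479% and 0.370% outside and 0.451% and 0.444% inside, with opposite orders in the 2 replicates. AGATAA of GATA factors had 0.808% and 0.843% outside and 0.894% and 0.989% inside. GAAANNGAA of IRF factors had 0.776% and 0.843% outside and 0.844% and 0.947% inside. ATCAAAG of TCF and LEF factors had 0.458% and 0.405% outside and 0.766% and 0.514% inside. The GATA, IRF and TCF/LEF patterns were thus lower outside over all footprints, with ratios of outside to inside nearer to 1 than that of CTCF. The GATA order turned within each place: at promoters it was in 0.468% and 0.394% of outside and 0.303% and 0.325% of inside windows, and elsewhere in 1.30% and 1.40% of outside and 1.13% and 1.24% of inside windows. Away from promoters, IRF, with 0.994% and 1.26% outside and 0.946% and 1.08% inside, and Ikaros, with 3.75% and 3.62% outside and 3.399% and 3.59% inside, were also higher outside. TGANTCA of AP-1 had 0.511% and 0.578% outside and 0.958% and 0.857% inside.

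Near the edge that the rule draws, promoter shares lay close together, while widths and CTCF shares were lower just outside it. Footprints 1 to 10 bp outside a peak numbered 8121 and 6797, and inside footprints that straddled a peak edge numbered 11131 and 8778. Promoter shares were 45.1% and 46.3% just outside and 50.4% and 46.1% on the edge, and CTCF shares were 0.419% and 0.471% just outside and 0.880% and 1.03% on the edge. Median widths were 10 and 9 bp just outside and 15 and 12 bp on the edge; a wide footprint is more likely to touch an edge. These values are a description of the threshold.

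The rule for a given set used no peaks of the other replicate. The footprints of the other replicate were, however, divided into outside and inside by the same rule on its own peaks. Those peaks covered at least 1 base of 82.1% of replicate 1 and 70.3% of replicate 2 inside footprints. The rule therefore bears on the split by class, which is given as a description only. Of replicate 1 outside footprints, 23.9% overlapped an outside footprint of replicate 2 (10536 footprints) and 24.0% a footprint in a replicate 2 peak, so that 47.9% met some footprint there. Of replicate 2 outside footprints, 22.0% overlapped an outside footprint of replicate 1 (10713 footprints) and 13.3% a footprint in a replicate 1 peak, in all 35.3%. Among inside footprints, 51.5% in replicate 1 and 47.4% in replicate 2 met some footprint of the other library. The share was lower for outside than for inside footprints in both libraries, with differences of -3.596 percentage points in replicate 1 and -12.1 in replicate 2, so the gap itself varied between them. The inside set was mixed: the share was 58.1% and 54.5% for footprints in peaks of the shorter list. For footprints in peaks of the longer list only it was 23.2% and 11.8%, below the outside shares.

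Many outside footprints of one library lay in a peak of the other. A peak of the other replicate covered at least 1 base of 43.6% of replicate 1 outside footprints and 25.4% of those of replicate 2, against 82.1% and 70.3% of inside footprints. The other replicate's track listed a base under 0.05 in 95.8% and 86.0% of outside footprints and 90.0% and 81.8% of inside footprints. Its median lowest FDR there was 4.84e-26 and 2.89e-15 for outside footprints, against 3.19e-12 and 8.49e-09 for inside ones. The DNA under outside footprints was therefore listed as open in the other animal at least as often as that under all inside footprints. Peak and footprint calls were shared at lower rates. The inside set here takes in the footprints in peaks of the longer list only, and the comparison is not split by peak list or peak strength. Nothing was listed in the other library for 4.15% of replicate 1 and 13.9% of replicate 2 outside footprints, against 9.92% and 18.15% of inside footprints.

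**Figure D4:**
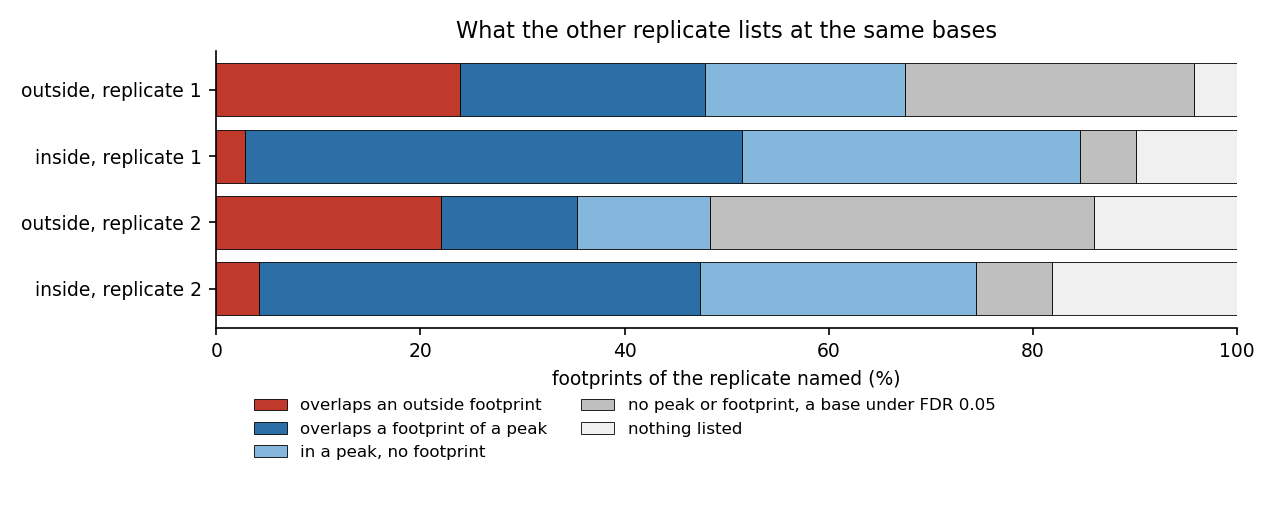
What the other replicate lists at the bases of outside and inside footprints, as stacked shares (%) of the footprints of each set: an outside footprint, a footprint of a peak, a peak without a footprint, track under FDR 0.05 only, or nothing. An outside footprint of the other replicate was met by 23.9% and 22.0% of outside footprints in replicates 1 and 2, and by 2.77% and 4.18% of inside footprints. The same rule divided the footprints of both replicates, so it bears on this contrast.

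Outside the peaks of both replicates lay 24871 footprints of replicate 1 and 36300 of replicate 2. The 6830 reciprocal pairs among them, from which the printed sequences come, were mostly at promoters: 5369 of them (78.6%) lay within 500 bp of a TSS, at 3485 genes. They held 3.43 CpG per window on average, and 399 had the same start and end in both libraries. Their median distance to any peak was 33 bp and the largest 550 bp. The median FDR of the weaker replicate was 1.86e-31. Of all footprints outside both replicates' peaks, paired or not, 67.7% in replicate 1 and 58.3% in replicate 2 were within 500 bp of a TSS. Reciprocal pairs of inside footprints were not formed, so whether these values set the outside pairs apart from other pairs is unknown.

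Of 20753 protein-coding genes, 7366 (35.5%) had an outside footprint within 500 bp of a TSS in both replicates. Kat6b, a histone acetyltransferase gene, had the most, with 21 in replicate 1 and 19 in replicate 2, beside 14 and 9 inside footprints. Hnrnph1, which encodes a splicing regulator, had 14 and 19, Ing2 20 and 11, and Sin3a, the scaffold of a histone deacetylase complex, 19 and 9. H3f3a, a replacement histone gene, had 13 and 14, and Pim1, a kinase gene, 11 and 15. Abhd11 had 10 and 17, Ppp6r3, a phosphatase regulatory subunit gene, 13 and 12, Rps6ka5, a kinase gene, 13 and 12, and Stt3b 15 and 10. Chromatin and RNA regulators stood among these 10 genes, which were named by their counts, and no test of a theme was made. Genes with several TSSs offer more bases: the window was 3018 bp at Kat6b and 4027 bp at Sin3a, but 1001 bp, that of a single TSS, at Ing2 and Stt3b.

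The genes with the densest outside footprints over their span were also named. In a short gene the flanks make up most of the span, so footprints at neighbouring genes are counted too. Per 100 kb of gene with 25 kb on each side, Supt4a, a transcription elongation factor gene, had 92.7 in replicate 1 and 96.3 in replicate 2. The median over all genes was 2.90 and 3.36. Plekhg2, a guanine nucleotide exchange factor gene, had 66.7 and 76.2, and its span overlaps that of Zfp36, an mRNA decay factor gene with 61.7 and 69.2. Atp5d, an ATP synthase subunit gene, had 89.2 and 49.0, and its span overlaps those of Midn, Cirbp and 1600002K03Rik, so these 4 count many of the same footprints. Pias4, a SUMO ligase gene, had 72.7 and 65.0, Erf, an ETS repressor gene, 79.04 and 55.0, and Agpat1, a lipid synthesis gene, 76.0 and 55.8.

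Genes of thymocytes carried outside footprints at a share close to that of all genes with a footprint inside a promoter peak. Of 40 thymocyte and T cell genes, 22 had an outside footprint at a TSS in both replicates (55%, against 35.5% of all genes). A footprint inside a promoter peak was present in both replicates at 38 of the 40, and 21 of those 38 (55.3%) also had outside footprints in both. For all genes this was 7322 of 11825 (61.9%). The 6 T cell genes with no outside footprint at a TSS in either replicate were Ccr9, Cd1d1, Dntt, Il7r, Ptcra and Rag2. They include the pre-T cell receptor alpha chain (Ptcra), a recombinase subunit (Rag2) and the terminal transferase that adds bases at receptor joins (Dntt). Rag1, the other recombinase subunit gene, had 1 and 2.

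The T cell genes with the most were Notch1, Bcl11b, Tox, Cd8b1, Satb1 and Lat. Notch1, the receptor that commits progenitors to the T lineage, had 4 outside footprints in replicate 1 and 12 in replicate 2, and 7 and 3 inside footprints. Bcl11b, a factor that fixes T cell identity, had 1 and 13 outside and 10 and 4 inside footprints. At both genes the replicate with more outside footprints had fewer inside ones. Tox, a factor of CD4 T cell development, had 4 and 10 outside and 1 and 0 inside footprints, so most of its promoter footprints were outside peaks in replicate 1 and all in replicate 2. Cd8b1, a chain of the CD8 coreceptor, had 4 and 8 outside and 8 and 5 inside footprints. Satb1, a chromatin organiser gene with a TSS window of 5645 bp, had 10 and 2 outside and 21 and 30 inside footprints. Lat, an adaptor of T cell receptor signalling, had 6 and 4 outside and 4 and 6 inside footprints.

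Peak calls at Notch1 differed between replicates. The peak over the TSS ran between positions -118 and 141 from the TSS in replicate 1, a width of 260 bp, and in replicate 2 its width was 60 bp. Of the 12 replicate 2 outside footprints, 4 lay on bases that the replicate 1 peak covers and 8 beyond them. The track under FDR 0.05 was long in both, in stretches of 1326 bp in replicate 1 and 1519 bp in replicate 2 over the TSS. At Ing2 a stretch of 3170 bp in replicate 1 and 3445 bp in replicate 2 lay over the TSS, while the peaks there had widths of 120 and 240 bp.

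**Figure D5:**
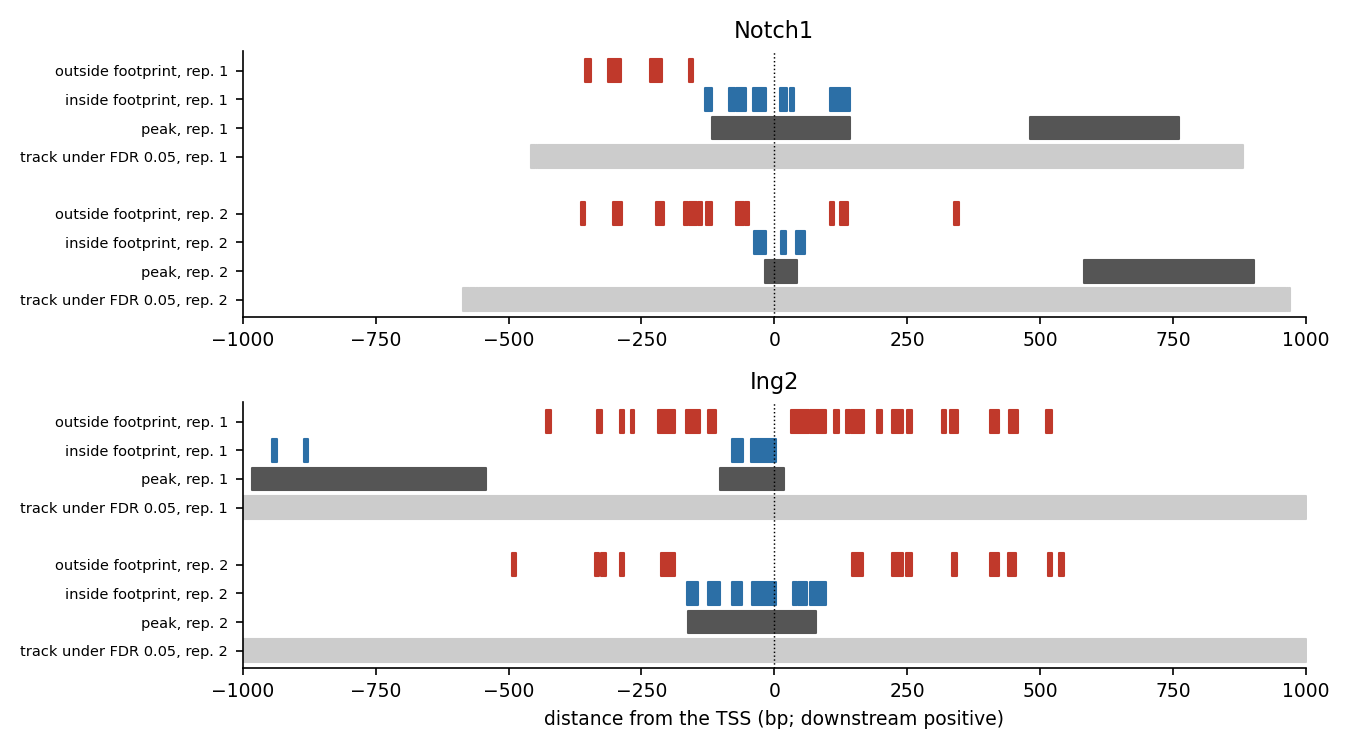
Maps of the 1000 bp on each side of the TSS of Notch1 and Ing2, by distance from the TSS (bp, downstream positive), with outside footprints (red), inside footprints (blue), peaks (dark grey) and the track under FDR 0.05 (light grey) in each replicate. The Notch1 peak over the TSS is 260 bp wide in replicate 1 and 60 bp wide in replicate 2, and 4 of the replicate 2 outside footprints lie within the extent of the replicate 1 peak.

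Of 13 ubiquitous genes on the autosomes, 12 (92.3%) had an outside footprint at a TSS in both replicates, against 35.5% of all genes and 61.9% of those with a footprint inside a promoter peak in both. All 13 had such a footprint inside a peak. The outside footprints had medians of 4 and 5 per gene, against 1 and 1 for T cell genes and 0 and 0 for all genes. The last medians take in genes with no footprint inside a promoter peak: 59.1% and 59.5% of all genes had one. Ywhaz, a signalling adaptor gene, had 8 and 13 outside footprints, Hsp90ab1, a chaperone gene, 4 and 10, and Tbp, the TATA-binding protein gene, 3 and 7. Rpl13a and Rplp0, ribosomal protein genes, had 7 and 2 and 4 and 5, and Gapdh, a glycolysis gene, 4 and 4.

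Lists for other cell types had smaller shares than the 35.5% of all genes. Of 14 thymic epithelial genes, 4 (28.6%) had outside footprints in both replicates, which were 4 of the 6 (66.7%) with a footprint inside a promoter peak in both, against 61.9% of all such genes: Ccl25, a chemokine gene, with 3 and 5, Cldn4, a tight junction gene, with 1 and 2, Ly75, an endocytic receptor gene, with 2 and 1, and Aire, which drives expression of tissue antigens, with 1 and 1. Of 14 endothelial and mesenchymal genes only Pecam1, an endothelial adhesion gene, had them, with 3 and 6. That was 1 of the 4 with a footprint inside a promoter peak in both. None of 12 B cell, 14 myeloid and dendritic, 14 hepatocyte and 9 erythroid genes had them in both replicates. In replicate 2 alone, 2 B cell genes and 1 myeloid gene had them. Only 3 B cell, 3 myeloid and 1 erythroid gene, and no hepatocyte gene, had a footprint inside a promoter peak in both. These counts therefore rest on few genes. As a check of the thymus label, all 40 T cell genes in replicate 1 and 95% in replicate 2 had a footprint in a promoter peak, against 59.1% and 59.5% of all genes. The shares were 42.9% and 50% for thymic epithelium, 41.7% and 33.3% for B cells, 35.7% and 28.6% for endothelium and mesenchyme, 21.4% and 21.4% for myeloid and dendritic cells and 11.1% and 11.1% for erythroid cells, and no hepatocyte gene had one.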

How the data were processed

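Thymus DNase-seq of 2 animals was used. Per the authors' deposited listing, peaks and the FDR track came from each library's own mm10 alignments, and footprints from those and the track; replicates were not pooled. For the aligner and the callers, names and settings were not given in the sources used here. Strength is the signal column the authors deposited for each peak, used for ranks within a replicate. Track values are the authors' FDR (q-value, a p-value column) per run of bases, listed only under 0.05; in the footprint files it is constant.

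Overlapping or touching peaks were joined into blocks before overlaps and distances were computed (Python 3.11.15, numpy 2.4.6, pandas 2.3.3, scipy 1.17.1). Chromosome X was left out by the rule; 14.4% and 12.1% of its footprints were outside. Annotation was GENCODE M21 basic, sequence GRCm38.p6. A footprint was at a promoter when its midpoint lay within 500 bp of a protein-coding TSS. For genes, 27 duplicated symbols were left out. Lowest FDR is the smallest value over a footprint's bases, set to 1 where none is listed. Interval code was tested on simulated data.

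Members, 8 gene lists (130 of 133 genes found) and 14 patterns were chosen with earlier results of these data known. Genes named were the 6 per list and 10 overall with the most outside footprints at a TSS among genes with them in both replicates, the 10 densest spans, and 4 footprint pairs per rule. T cell genes with none, and the mapped genes, were picked after their values were seen. With 2 samples of 1 group no test was made; footprints and genes are not replicates. Alternatives were another peak list, overlap, width, window and FDR threshold, and leaving out each replicate.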

Additional observations from a re-analysis of the deposited data

How the results depend on the processing

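The values are means of both replicates, and moves are those by more than the SD between replicates. Under the shorter peak list, 30.8% of footprints were outside (16.0% under the longer), at a median of 150 bp from a peak (44.5 bp), with 49.9% within 150 bp (87.0%), 33.2% within 500 bp of a TSS (57.2%), 98.6% with a base under FDR 0.05 (99.5%), 14.8% on an outside footprint of the other replicate (23.0%), 2.49% with the CTCF pattern (0.544%) and 1.84 CpG per window (2.64). Chosen after the data were seen, the outside minus inside differences under the shorter list were 0.780 percentage points for the TSS share (29.2 under the longer list), -2.24 for the CTCF pattern (-4.18) and -26.2 for any footprint of the other replicate (-7.85). They reversed to -0.141 for CpG (0.831) and to 12.52 for log10 of the median lowest FDR (-11.9). The class of footprints in peaks of the longer list only, described with the promoters, moves between the sets here. For footprints outside both replicates' peaks, the TSS share was 63.0%, the share on an outside footprint of the other replicate 34.4%, the CTCF share 0.412%, and the differences were 33.8 points for the TSS share and 0.924 for CpG.

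Counting a footprint as inside only with at least 50% of its bases in a peak put 17.6% outside, and widening peaks by 20 bp put 11.3% outside, of which 19.8% met an outside footprint of the other replicate. Footprints of at least 10 bp were outside in 13.1%, with 99.7% under FDR 0.05, 24.6% meeting an outside footprint of the other replicate and 0.828% with the CTCF pattern. The distance between midpoints was 167.5 bp. A TSS window of 2000 bp gave 67.0% and the TSSs of all genes 60.6%. An FDR threshold of 0.01 gave 93.2%, 0.001 gave 88.9% and a demand on every base 98.3%. Reciprocal overlap of at least 50% gave 15.1%. Windows of 21 and 61 bp gave CTCF shares of 0.312% and 0.779%, and CpG in the footprint with 5 bp on each side came to 2.98 per 41 bases; the causes were not tested. Of 36 planned values besides those that leave out a replicate, the other 8 moved by less than the SD. Leaving out 1 of 2 replicates gives the value of the other, which always lies within 1 SD of the mean, so it is no check.

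No paired analysis was possible because there is only 1 group. With 2 animals and unknown depth, the spread between animals is poorly known, and the part of depth in footprints that only 1 library holds was not tested.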
